A study of Homo sapiens with 12 samples.

Results

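The NF-κB feedback inhibitors examined here were 10 genes chosen by name: NFKBIA, NFKBIB, NFKBIE, BCL3, NFKBIZ, TNFAIP3, TNIP1, TNIP2, TNIP3 and CYLD. The choice was made with earlier results of these data known, so their counts beside the shares of all genes are descriptive. Each was measured by 1 probe set carrying that symbol alone, and all 10 of the 10 passed the filter on low values, out of 22395 genes named on the array and 20572 tested. NF-κB dimers are held in the cytoplasm by the inhibitor proteins IκBα, IκBβ and IκBε until a cytokine such as TNFα activates the IκB kinase, which marks these inhibitors for degradation. The freed dimers enter the nucleus and switch on inflammatory genes, and also genes whose products stop the signal: new IκBα, and enzymes and adaptors that remove or bind the ubiquitin chains on which the receptor complex is built. Atypical IκB proteins, such as those encoded by BCL3 and NFKBIZ, act in the nucleus, where they can raise as well as lower transcription of NF-κB targets.

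The cells were MDA-MB-231, an established human line of triple-negative breast cancer cells, taken from a pleural effusion. Of the 4 groups of 3 arrays, the control was untreated, and the others received TNFα at 40 ng/ml, apigenin (a plant flavone) at 40 µM, or both, for 24 h. All cells grew in the same serum-containing medium and the treatments were made up in HBSS; no label says if the controls also received HBSS or any solvent. The labels number the samples 1 to 3 in each group and do not say if each was its own culture, so p-values rest on a spread between samples that may be only technical.

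Values are deposited log2 expression values, in which 1 unit is a 2-fold difference in signal. Array medians lay between 2.09 and 2.16, and the level that the filter asked for, the 25th percentile of an array, between 1.6 and 1.64. As a check of the label, VIM (7.93 to 8.3 over the 12 arrays), AXL (9.88 to 10.19) and CD44 (7.29 to 8.32), typical of mesenchymal-like cells, read high, and ESR1, PGR and CDH1 stayed at or below 2.44. EPCAM (4.58 to 5.24) and GATA3 (3.65 to 4.67), listed as absent, were above the upper quartile on all 12 arrays, and KRT18, listed as present, read only 2.93 to 4.04. The leukocyte markers PTPRC and CD3E stayed at or below 1.72, while CD68, also a lysosomal protein of other cells, read 9.52 to 9.95; the mean of the 5 measured leukocyte markers ran from 3.28 to 3.51 over all 4 groups, and that of 3 fibroblast markers from 1.69 to 1.99. The mean of 3 endothelial markers was 3.12 to 3.2 with TNFα, 2.63 to 2.86 in control, 2.35 to 2.7 with apigenin and 2.48 to 2.69 with both; of these KDR read 2.87 to 5.52, and CDH5 and VWF stayed at or below 2.55 on all 12 arrays. The mean of the 6 MDA-MB-231 markers was 7.67 to 7.86 without and 7.48 to 7.57 with apigenin. The part of these marker levels in the results was not tested. Arrays of the same RNA amount cannot tell fewer cells expressing a gene from less RNA of it per cell. The array numbered 3 had the highest mean of the 10 inhibitors in every group, by 0.08 to 0.16 above the group mean, and its part in the results was examined by leaving those arrays out.

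Several of these genes are textbook NF-κB targets, so the upstream sequence of each was searched for the NF-κB consensus motif on both strands, in the 250 bases before each RefSeq start site (GRCh38.p14). The motif was GGGRNNYYCC, where R is A or G, Y is C or T and N is any base. Sequence was at hand for 9 of the 10 genes, all but NFKBIE, and 7 of the 9 held a match in at least 1 window, against 11.8% of the 27305 genes in the table. Counted by window, 9 of 16 held a match, against 9.96% of 35116. The whole upstream window of NFKBIA is given because its product is the classical feedback inhibitor, and 30-base stretches are given for the other genes; capitals mark the bases of a match, and every sequence runs 5′ to 3′ on the strand of its gene.
NFKBIA, chr14:35404750-35404999, minus strand: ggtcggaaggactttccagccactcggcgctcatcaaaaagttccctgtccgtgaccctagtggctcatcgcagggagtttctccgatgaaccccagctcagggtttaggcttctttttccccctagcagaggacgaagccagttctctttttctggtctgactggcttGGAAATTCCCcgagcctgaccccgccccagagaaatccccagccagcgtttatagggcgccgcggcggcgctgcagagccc
TNFAIP3, chr6:137867188-137867217, plus strand: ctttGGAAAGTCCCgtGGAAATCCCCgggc
TNIP1, chr5:151081057-151081086, minus strand: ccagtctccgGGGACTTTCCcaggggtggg
NFKBIB, chr19:38899932-38899961, plus strand: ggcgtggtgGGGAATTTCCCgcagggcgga
NFKBIZ, chr3:101827757-101827786, plus strand: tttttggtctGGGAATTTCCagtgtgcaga
TNIP3, chr4:121227526-121227555, minus strand: tcttaaaaaaGGGGTTTCCCtgtgtatggg
CYLD, chr16:50741887-50741916, plus strand: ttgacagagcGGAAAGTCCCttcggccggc

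In TNFAIP3 the window held 2 matches, at 67 to 58 and 55 to 46 bases before the start site. The match in NFKBIA lay 81 to 72 bases before the start and that in TNIP1 42 to 33 bases before it. In NFKBIB 2 matches on opposite strands overlapped by all but 1 base. NFKBIZ and TNIP3 each had a further match in the window of another start site. No match was found in the windows of BCL3 and TNIP2. Stretches that differ from the motif at any base were not counted. A match describes the letters only, and binding was not measured.

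The comparison of TNFα with control asked which inhibitors the cytokine changed by itself. Of the 10 genes 8 rose, none fell and 2 were not called, where called means an adjusted p below 0.05 over the 20572 genes in the limma fit; of all genes tested 0.997% were called, 0.778% higher and 0.219% lower. The ubiquitin-editing enzyme gene TNFAIP3 rose 8.72-fold, and TNIP1, NFKBIA and NFKBIE rose between 3.19-fold and 3.66-fold. BCL3, NFKBIZ and NFKBIB rose by 1.82-fold or less. TNIP3 rose 2.04-fold on this scale, from control values near the low end, where a fold can be understated. The 3 TNFα arrays lay above the 3 controls for 9 of the 10 genes, against 8.42% of all genes that were higher without overlap.

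Among the cytoplasmic IκB genes, NFKBIA (probe set 16791991), which encodes IκBα, read 6.44, 6.46 and 6.65 in control and 7.98, 8.09 and 8.54 with TNFα. The groups were well apart, and the log2 difference was 1.69 (SE 0.15, adjusted p = 3.03e-05). NFKBIE, which encodes IκBε, read 4.57, 5.0 and 5.21 in control and 6.71, 6.48 and 6.6 with TNFα. Its difference was nearly that of NFKBIA, 1.67 (SE 0.19, adjusted p = 3.55e-04), with controls spread over a wider range. NFKBIB, the gene of IκBβ, read 4.77, 4.78 and 4.98 in control and 5.72, 5.45 and 5.59 with TNFα. The 3 TNFα arrays were higher here too, by 0.74 (SE 0.13, adjusted p = 0.0104). The call of NFKBIB was lost without control replicate 1 (adjusted p = 0.0605), without TNFα replicate 1 (0.0681), without the arrays numbered 3 (0.0611) and in a fit of the 6 arrays compared (0.0726). These fits had fewer arrays, and the difference was 0.68 to 0.81 without single arrays and 0.81 without the arrays numbered 3.

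The nuclear IκB genes moved less than NFKBIA. BCL3, whose protein binds NF-κB p50 and p52 dimers on DNA, read 3.81, 3.6 and 3.97 in control and 4.72, 4.45 and 4.82 with TNFα. Each TNFα array was above each control, with a difference of 0.87 (SE 0.15, adjusted p = 0.0104). NFKBIZ, which encodes IκBζ, a co-activator of secondary response genes, read 4.15, 4.06 and 4.57 in control and 4.88, 4.86 and 5.36 with TNFα. The array numbered 3 was the highest of its group in both, and the difference was 0.78 (SE 0.16, adjusted p = 0.0402). Both calls were lost without control replicate 1 (adjusted p = 0.0506 for BCL3 and 0.172 for NFKBIZ), control replicate 2 (0.0579 and 0.171), TNFα replicate 1 (0.0631 and 0.0813) or TNFα replicate 3 (0.0634 and 0.169). They were also lost without the arrays numbered 3 (0.0705 and 0.0574) and in the fit of the 6 arrays compared (0.0645 and 0.207). These fits had fewer arrays. Without single arrays the difference was 0.77 to 0.97 for BCL3 and 0.61 to 0.93 for NFKBIZ. Without the arrays numbered 3 it was 0.88 and 0.77.

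Of the ubiquitin editors and binders, TNFAIP3, which encodes A20, read 3.34, 3.67 and 3.53 in control and 6.76, 6.38 and 6.77 with TNFα. No other of the 10 genes changed as much: the difference was 3.12 (SE 0.15, adjusted p = 6.13e-08). TNIP1, the gene of the A20-binding adaptor ABIN1, read 5.6, 5.81 and 5.81 in control and 7.76, 7.58 and 7.5 with TNFα. The spread within each group was small beside the difference of 1.87 (SE 0.12, adjusted p = 1.47e-06). TNIP3, which encodes ABIN3, read 1.84, 1.84 and 1.74 in control and 2.5, 2.7 and 3.3 with TNFα. The control values were close to the filter level and below the array medians, so the log2 difference of 1.03 (SE 0.16, adjusted p = 0.00646) can understate the change in RNA. Its call was lost without the arrays numbered 3 (0.76, adjusted p = 0.0611) and in the fit of the 6 arrays compared (adjusted p = 0.0912).

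Neither of the remaining genes was called with TNFα in the fit of the 4 group means. TNIP2, the gene of ABIN2, read 5.37, 5.09 and 4.94 in control and 5.25, 5.25 and 5.29 with TNFα, with overlapping groups. Its difference was 0.13 (95% interval -0.16 to 0.42, adjusted p = 0.804). CYLD, a deubiquitinase of linear and lysine-63-linked chains, read 5.64, 5.57 and 5.82 in control and 6.21, 5.96 and 6.54 with TNFα. The groups did not overlap, and the difference was 0.56 (95% interval 0.2 to 0.93, adjusted p = 0.173).

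**Figure D1:**
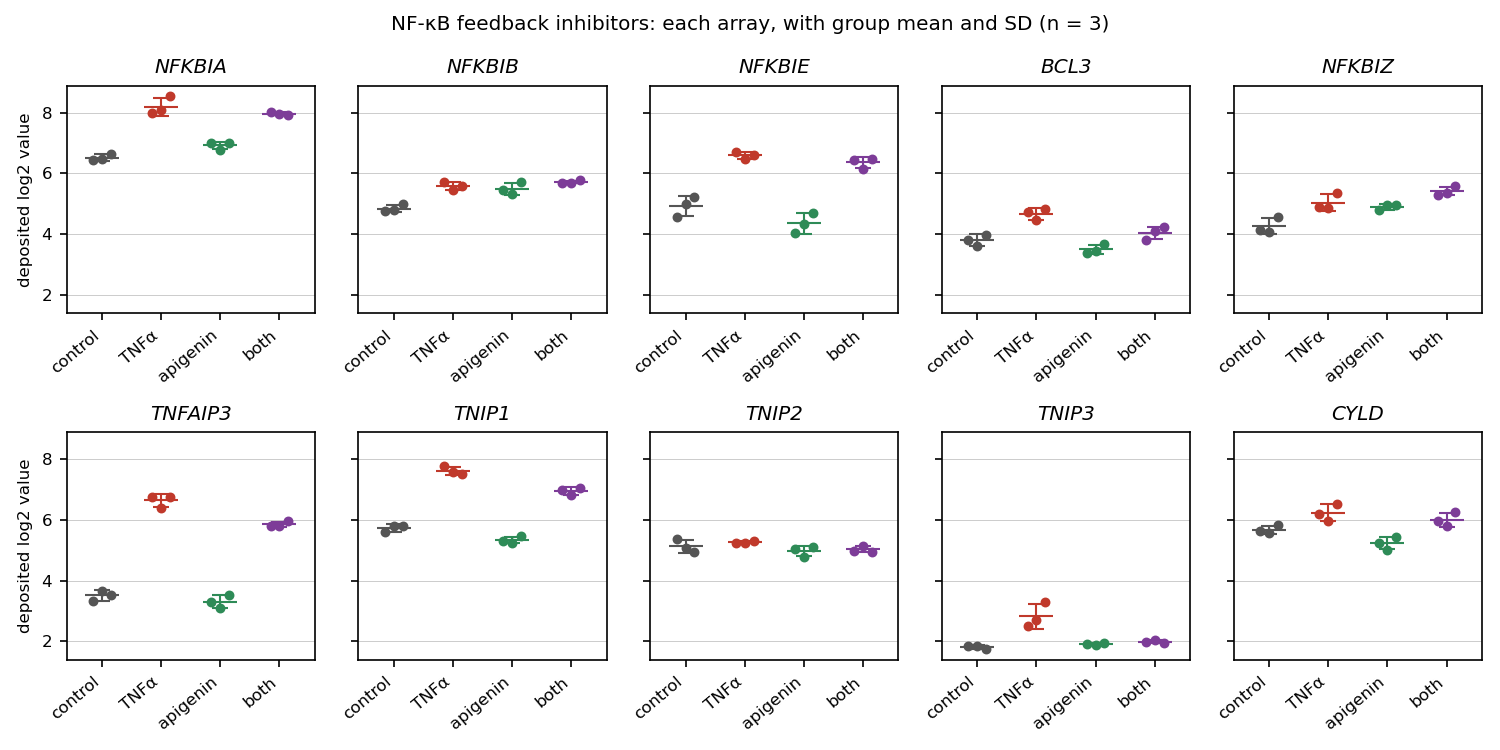
Deposited log2 value (vertical axis) of each of the 10 genes on each of the 12 arrays, by group; points are arrays, the horizontal bar is the group mean and the error bar the SD (n = 3). TNFAIP3 reads 3.34 to 3.67 in control and 6.38 to 6.77 with TNFα, while TNIP2 lies between 4.78 and 5.37 in all groups.

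The comparison of apigenin with control asked whether the flavone alone changed these genes. It called 3 of the 10, with 2 higher and 1 lower, against 11.4% of all genes called (4.55% higher and 6.83% lower). The groups did not overlap for 6 of the 10, against 25.5% of all genes. NFKBIB read 5.45, 5.33 and 5.71 with apigenin, above its 3 controls, a rise of 0.66 (SE 0.13, adjusted p = 0.00409). NFKBIZ read 4.8, 4.95 and 4.97 and rose by 0.65 (SE 0.16, adjusted p = 0.0203). TNIP1 read 5.31, 5.24 and 5.46, below its controls, and fell by 0.40 on the log2 scale (SE 0.12, adjusted p = 0.0483), close to the threshold.

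Only the NFKBIB call held whichever of the 6 arrays was left out. The NFKBIZ call was lost without control replicate 1 (adjusted p = 0.0757), control replicate 2 (0.0768), apigenin replicate 2 (0.0638) or apigenin replicate 3 (0.0647). The TNIP1 call was lost without control replicate 2 (0.13), control replicate 3 (0.132), apigenin replicate 1 (0.137) or apigenin replicate 2 (0.155), without the arrays numbered 3 (0.131) and in the fit of the 6 arrays compared (0.101). Without single arrays the difference was 0.55 to 0.8 for NFKBIZ and -0.48 to -0.36 for TNIP1, in fits with fewer arrays. The count of called genes was 1 of the 10 without control replicate 2, beside 9.97% of all genes, and 1 without apigenin replicate 2, beside 8.49%, so it then lay near the share of all genes called.

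The other 7 genes were not called with apigenin in the fit of the 4 group means. NFKBIA read 7.0, 6.77 and 7.01, each above the 3 controls, a difference of 0.41 (95% interval 0.1 to 0.72, adjusted p = 0.0951). NFKBIE read 4.03, 4.33 and 4.7, overlapping the controls, a difference of -0.58 (95% interval -0.98 to -0.17, adjusted p = 0.0675). It passed the threshold without control replicate 1 (-0.75, adjusted p = 0.0264), without apigenin replicate 3 (-0.75, adjusted p = 0.0249) and with quantile normalisation (-0.63, adjusted p = 0.0152). CYLD read 5.25, 5.02 and 5.45, below its controls, a difference of -0.43 (95% interval -0.8 to -0.07, adjusted p = 0.133), and passed with quantile normalisation (-0.48, adjusted p = 0.0191). TNFAIP3 read 3.31, 3.11 and 3.52, overlapping its controls (-0.2, 95% interval -0.52 to 0.12, adjusted p = 0.485). BCL3 (-0.3, 95% interval -0.62 to 0.02), TNIP2 (-0.16, -0.45 to 0.13) and TNIP3 (0.1, -0.25 to 0.45) had intervals that include 0.

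The combined treatment was then set against TNFα alone, to read the effect of apigenin in TNFα-treated cells. Of the 10 genes 4 were lower with both than with TNFα alone and none was higher, against 5.92% of all genes called lower, 4.21% called higher and 10.1% called in either direction. TNFAIP3 read 5.8, 5.81 and 5.95 with both, below all 3 TNFα arrays, a fall of 0.78 on the log2 scale (SE 0.15, adjusted p = 0.00425). Even so it stayed far above the apigenin arrays. TNIP1 read 7.0, 6.82 and 7.04 and fell by 0.66 (SE 0.12, adjusted p = 0.00376). TNIP3 read 1.99, 2.03 and 1.93 and fell by 0.85 (SE 0.16, adjusted p = 0.00488). These values lay above each control array but below the array medians, and they overlapped those with apigenin alone. BCL3 read 3.82, 4.11 and 4.22 and fell by 0.61 (SE 0.15, adjusted p = 0.018), to a range that overlaps the controls.

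The calls of TNFAIP3, TNIP1 and TNIP3 held whichever of the 6 arrays was left out. The BCL3 call was lost without TNFα replicate 1 (adjusted p = 0.07), TNFα replicate 3 (0.0734) or replicate 1 of the combined treatment (0.095), and without the arrays numbered 3 (0.0599). Its difference was -0.72 to -0.5 without single arrays and -0.62 without the arrays numbered 3, in fits with fewer arrays. No IκB gene of the cytoplasmic kind was called: NFKBIA read 8.03, 7.97 and 7.92 with both (difference -0.23, 95% interval -0.54 to 0.08, adjusted p = 0.417). NFKBIE read 6.44, 6.15 and 6.49 (-0.24, 95% interval -0.64 to 0.17, adjusted p = 0.546), and NFKBIB 5.7, 5.7 and 5.77 (0.14, 95% interval -0.14 to 0.41, adjusted p = 0.628). All 3 overlapped the TNFα arrays. NFKBIZ read 5.3, 5.37 and 5.58, a difference of 0.38 (95% interval 0.03 to 0.73, adjusted p = 0.186), and its mean of 5.42 was the highest of its 4 groups. CYLD (5.95, 5.8 and 6.25; -0.24, 95% interval -0.6 to 0.13) and TNIP2 (4.99, 5.15 and 4.95; -0.24, 95% interval -0.52 to 0.05) were not called, although the 3 values of TNIP2 lay below the TNFα arrays. In all, 5 of the 10 genes were lower without overlap, against 14.6% of all genes.

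**Figure D2:**
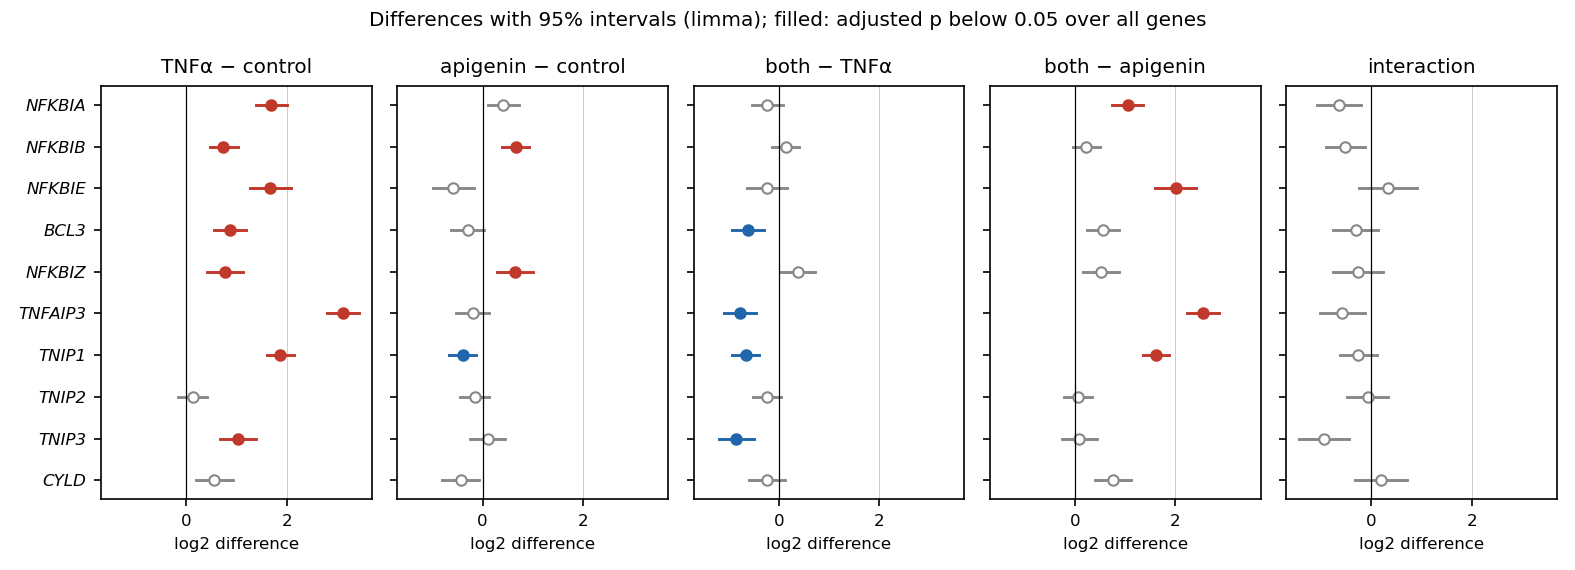
Log2 difference (horizontal axis) of each of the 10 genes in the 5 comparisons, with the 95% interval of the limma fit; filled red or blue points are called higher or lower over all genes and open grey points are not called. With TNFα 8 points are red, between both and TNFα 4 are blue, and none is filled for the interaction.

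The response to TNFα could also be read in cells that had apigenin, by setting the combined treatment against apigenin alone. Here 4 of the 10 genes rose and none fell, against 0.209% of all genes called, all of them higher. TNFAIP3 rose 5.83-fold (log2 difference 2.54, SE 0.15, adjusted p = 2.69e-06) and NFKBIE 4.03-fold (2.01, SE 0.19, adjusted p = 1.33e-04). TNIP1 rose 3.06-fold (1.62, SE 0.12, adjusted p = 2.9e-05) and NFKBIA 2.07-fold (1.05, SE 0.15, adjusted p = 0.00702). The NFKBIA call was lost without apigenin replicate 2 (0.97, adjusted p = 0.0536). CYLD (0.76, 95% interval 0.4 to 1.12, adjusted p = 0.141), BCL3 (0.56, 0.24 to 0.87, adjusted p = 0.301) and NFKBIZ (0.51, 0.16 to 0.87, adjusted p = 0.479) were not called, although their groups did not overlap. That was so for 7 of the 10 genes, against 10.4% of all genes higher without overlap. NFKBIB (0.22, 95% interval -0.05 to 0.5), TNIP3 (0.08, -0.27 to 0.43) and TNIP2 (0.06, -0.23 to 0.34) overlapped between the groups.

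The interaction tested the difference itself, as the TNFα response with apigenin minus that without it. None of the 10 genes was called in the limma fit, where 0.0535% of all genes were; 4 had an unadjusted p below 0.05, against 4.23% of all genes. None was called by any alternative fit either. On simulated data this comparison called 62% of differences of 1 log2 unit. An absent call therefore does not show an equal response. TNIP3 had the lowest p, with a difference of response of -0.95 (SE 0.23, 95% interval -1.44 to -0.45, unadjusted p = 0.00115, adjusted p = 0.55). Its SD was 0.41 with TNFα and 0.04 to 0.06 in the other groups, whose values lay below the array medians. Without the arrays numbered 3 its difference of response was -0.63. NFKBIA differed by -0.64 (95% interval -1.08 to -0.2), TNFAIP3 by -0.58 (-1.03 to -0.13) and NFKBIB by -0.52 (-0.91 to -0.13), each with an adjusted p of 0.999. NFKBIE (0.34, 95% interval -0.24 to 0.91) and CYLD (0.2, -0.32 to 0.71) were the genes with a positive estimate, and BCL3 (-0.31, -0.76 to 0.14), NFKBIZ (-0.26, -0.76 to 0.24), TNIP1 (-0.26, -0.63 to 0.11) and TNIP2 (-0.07, -0.48 to 0.33) had negative ones.

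**Figure D3:**
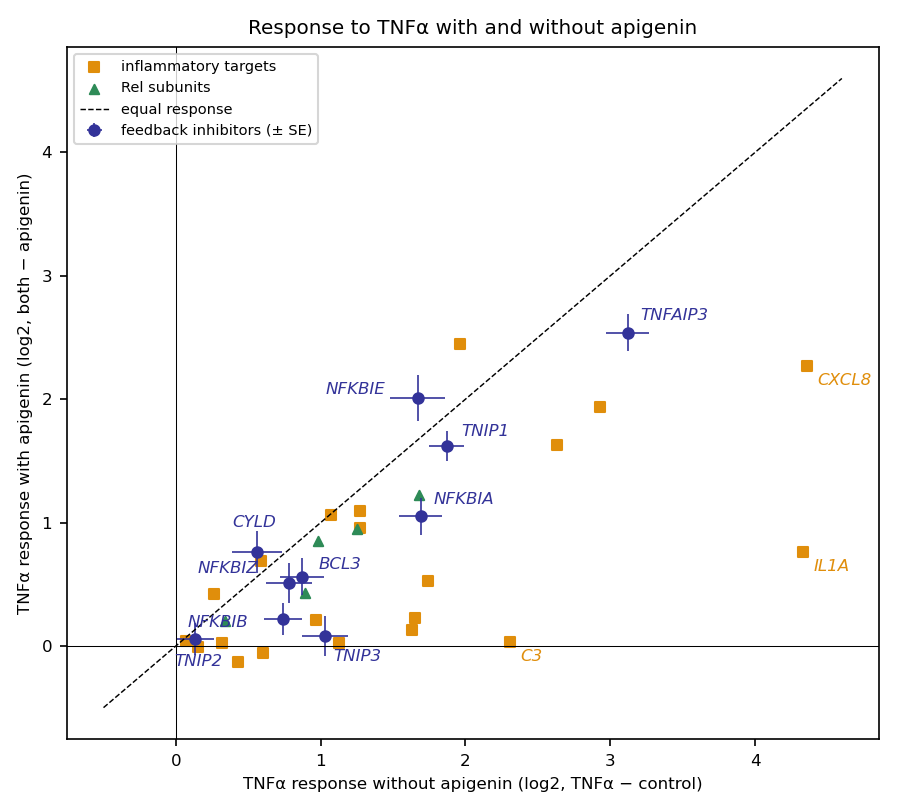
Log2 response to TNFα without apigenin (horizontal axis) and with apigenin (vertical axis), which share no arrays; circles are the 10 inhibitors with SE, squares the inflammatory targets, triangles the Rel subunits, and the dashed line marks equal responses. TNFAIP3 lies at 3.12 and 2.54, NFKBIE above the line at 1.67 and 2.01, TNIP3 at 1.03 and 0.08, and IL1A at 4.33 and 0.76.

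The order of the group means differed between the genes. TNFAIP3 ran from apigenin (3.31 ± 0.21, mean ± SD, n = 3) and control (3.51 ± 0.17), which overlapped, through both (5.85 ± 0.09) to TNFα (6.64 ± 0.22). TNIP1 had the same order with no overlap between neighbours, at 5.34 ± 0.11, 5.74 ± 0.13, 6.95 ± 0.12 and 7.61 ± 0.14. In NFKBIE, at 4.35 ± 0.34, 4.93 ± 0.33, 6.36 ± 0.18 and 6.6 ± 0.11 in that order, both pairs of neighbours overlapped, while each TNFα-treated array lay above each array without TNFα. BCL3 ran from 3.5 ± 0.14 with apigenin through 3.8 ± 0.19 in control and 4.05 ± 0.2 with both to 4.66 ± 0.19 with TNFα, and only the last step was without overlap. CYLD had this order too, from 5.24 ± 0.21 through 5.67 ± 0.13 and 6.0 ± 0.23 to 6.24 ± 0.29, with control above apigenin on every array and the upper neighbours overlapping.

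Control was lowest for NFKBIA, NFKBIB, NFKBIZ and TNIP3. NFKBIA ran from 6.52 ± 0.12 in control to 6.92 ± 0.13 with apigenin, 7.97 ± 0.05 with both and 8.2 ± 0.3 with TNFα, and the last pair overlapped. NFKBIB stood at 4.84 ± 0.12 in control and at 5.5 ± 0.2, 5.59 ± 0.14 and 5.72 ± 0.04 with apigenin, TNFα and both, 3 levels in which neighbours overlapped. NFKBIZ ran from 4.26 ± 0.27 in control to 4.9 ± 0.09 with apigenin, 5.04 ± 0.28 with TNFα and 5.42 ± 0.14 with both, again with overlap above the control. TNIP3 stood at 1.81 ± 0.06 in control, 1.91 ± 0.04 with apigenin and 1.98 ± 0.05 with both, and TNFα was apart at 2.83 ± 0.41. TNIP2 ran only from 4.97 ± 0.17 with apigenin to 5.26 ± 0.03 with TNFα.

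To place each called gene among all others, the protein-coding genes with the nearest profile were found by the root mean square difference of the 4 group means, each gene centred on its own average. A profile that moves little has many near neighbours, so these distances are larger for the strong responders. TNFAIP3 was nearest to TNFRSF9, the costimulatory receptor 4-1BB, at 0.226 log2 units, followed by the protease ADAMTS9 (0.444) and the adhesion molecule ICAM1 (0.448). NFKBIA was nearest to the NF-κB precursor gene NFKB2 (0.086), then G0S2 (0.163), an inhibitor of triglyceride lipase, and the adaptor TRAF3 (0.181). NFKBIE was nearest to the adaptor TRAF1 (0.267), the interleukin-1 receptor-associated kinase family member IRAK2 (0.28) and LACC1 (0.317), and TNIP1 to ADAMTS9 (0.217), IRAK2 (0.258) and NAV3 (0.265).

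The weaker responders had other neighbours. NFKBIB was nearest to the nucleolar gene NOLC1 (0.036), GPATCH8 (0.04) and the RNA polymerase III subunit POLR3E (0.044). NFKBIZ was nearest to the nuclear receptor corepressor NRIP1 (0.034), RUSC2 (0.047) and the growth factor HBEGF (0.057). BCL3 was nearest to the ubiquitin ligase NEDD4L (0.019), FNDC3B (0.027) and DOCK9 (0.037). TNIP3 was nearest to the protease inhibitor SERPINA1 (0.023), which read 2.0 in control, 2.98 with TNFα, 2.08 with apigenin and 2.19 with both, then ZMIZ2 (0.059) and SNX29 (0.089). Among the 10 genes themselves, NFKBIB and NFKBIZ were each other's nearest (0.118), as were NFKBIE and TNIP1 (0.169) and BCL3 and CYLD (0.143).

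The other steps of the pathway were read from 5 lists. The Rel subunits, the DNA-binding proteins that the inhibitors restrain, rose with TNFα in 4 of 5 cases, led by NFKB2 (1.68, SE 0.28, adjusted p = 0.00811), NFKB1 (1.25, SE 0.13, adjusted p = 1.79e-04) and RELB (0.98, SE 0.14, adjusted p = 0.00275), while RELA was not called (0.34, adjusted p = 0.375). Their median difference was 0.98, that of the 10 inhibitors 0.95 and that of all genes 0.02. The receptor complex had none of 7 measured genes called (median -0.01), and 6 of its 13 listed genes were not analysed here. The kinases had none of 8 called (median 0.07). Of 13 other negative regulators 1 rose, the adaptor TRAF3 (1.19, SE 0.17, adjusted p = 0.00257), and the median was 0.13. Of 21 inflammatory targets 14 rose, led by CXCL8 (4.36), IL1A (4.33) and TNFRSF9 (2.93), with a median of 1.27. The comparison of TNFα with control called 0.997% of all genes. When single arrays were left out, 12 of the 19 calls in these lists held every time; NFKB2 lost its call without TNFα replicate 1 (adjusted p = 0.0544).

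With both against TNFα alone, none of the 5 Rel subunits was called (median -0.14), 4 of the 10 inhibitors were lower (median -0.24) and 11 of the 21 inflammatory targets were lower (median -0.5), with a median of -0.01 over all genes. The targets that fell most were IL1A (by 3.73 on the log2 scale), complement C3 (by 2.16) and IL1B (by 1.45). Of the other negative regulators, PDLIM2 (-0.46, adjusted p = 0.0228) and the A20-binding adaptor TAX1BP1 (-0.4, adjusted p = 0.0311) were lower and the ubiquitin ligase ITCH was higher (0.45, adjusted p = 0.0316). None of the receptor complex or kinase genes was called. Of all genes 10.1% were called in this comparison. Of the 14 calls 8 held when any single array was left out. Those of ITCH (adjusted p = 0.124 without TNFα replicate 1), TAX1BP1 (0.137 without replicate 2 of the combined treatment) and PDLIM2 (0.0956 without TNFα replicate 1) did not. The calls of ICAM1 (0.117 without TNFα replicate 2), IL1B (0.083) and IER3 (0.073), the last 2 without replicate 1 of the combined treatment, were lost too.

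With both against apigenin, 2 of the 5 Rel subunits rose, NFKB1 (0.95, adjusted p = 0.00603) and RELB (0.85, adjusted p = 0.0255). TRAF3 rose (1.0, adjusted p = 0.0269), as did BIRC2 (0.77, adjusted p = 0.0428), a ubiquitin ligase of the receptor complex, and 6 of the 21 targets, led by TRAF1 (2.45), CXCL8 (2.27) and TNFRSF9 (1.94). No kinase was called there, and of all genes 0.209% were called. Of these 10 calls 4 held when any single array was left out, those of TRAF1, CXCL8, TNFRSF9 and ICAM1; without apigenin replicate 1, for example, NFKB1 had an adjusted p of 0.0529, RELB 0.15, TRAF3 0.142 and BIRC2 0.142.

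With apigenin alone NFKB1 rose (0.51, adjusted p = 0.0191), and TAX1BP1 (-0.56, adjusted p = 0.00407) and the kinase adaptor TAB1 (-0.54, adjusted p = 0.018) fell. These were 1 of 5 Rel subunits, 1 of 13 other negative regulators and 1 of 8 kinases, in a comparison that called 11.4% of all genes. Of the 21 inflammatory targets CXCL8 (0.88) and ICAM1 (0.52) rose and TNFAIP2 (-0.71) and CFLAR (-0.44) fell, and no gene of the receptor complex was called. Only TAX1BP1 of these 7 kept its call when any single array was left out, and lost it without the arrays numbered 3 (adjusted p = 0.0626); without control replicate 2, for example, the adjusted p was 0.0751 for NFKB1 and 0.0533 for ICAM1, without control replicate 3 it was 0.0744 for TAB1, 0.0542 for TNFAIP2 and 0.0884 for CFLAR, and without apigenin replicate 1 it was 0.0518 for CXCL8. For the interaction the median was -0.29 over the 10 inhibitors, -0.3 over the Rel subunits and -0.66 over the inflammatory targets, with 0.01 over all genes. IL1A (-3.57), C3 (-2.29) and CXCL8 (-2.09) were the listed genes called there, where 0.0535% of all genes were called. CXCL8 lost its call in 9 of 12 fits without 1 array (adjusted p = 0.111 without replicate 2 of the combined treatment, the highest of the 9).

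**Figure D4:**
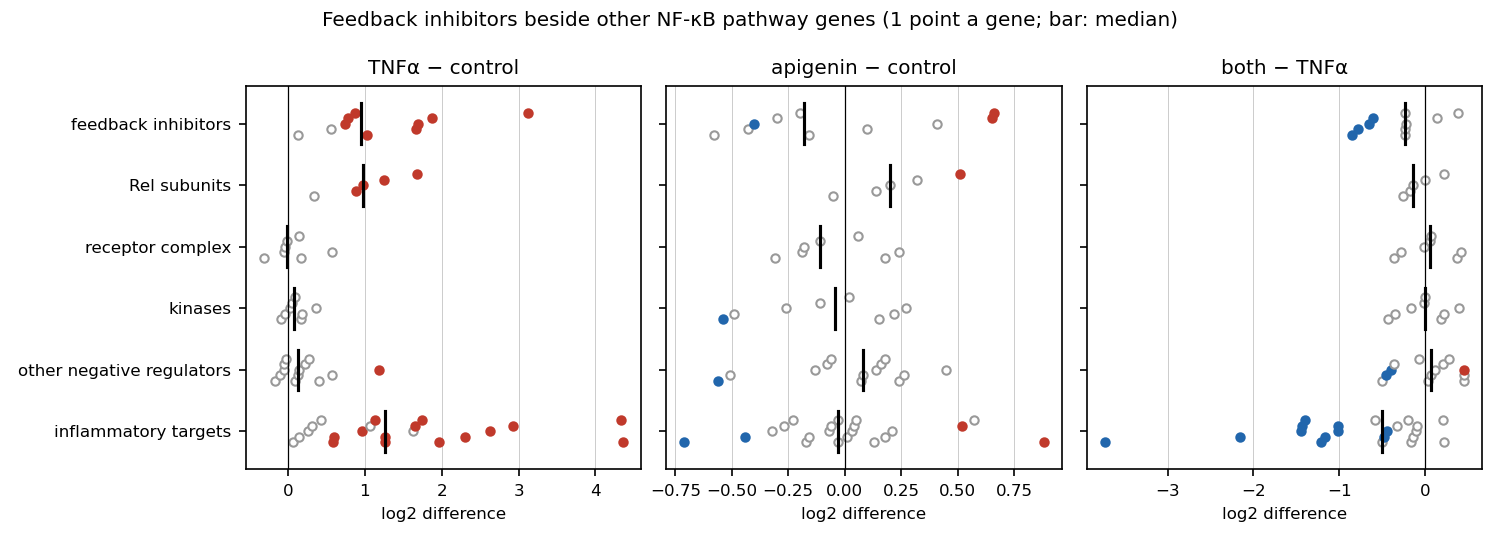
Log2 difference (horizontal axis; its range differs between panels) of each gene in 6 lists for TNFα against control, apigenin against control, and both against TNFα; filled red or blue points are called higher or lower, open points are not called, and the black bar is the list median. With TNFα the medians of the inhibitors and Rel subunits are 0.95 and 0.98, those of the receptor complex and kinases -0.01 and 0.07.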

How the data were processed

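The authors deposited log2 expression values per probe set for 12 arrays. Per the submitters' processing notes the software was Affymetrix Expression Console; for its version, algorithm, settings and any genome build the sources used here give nothing. Of 53617 probe sets, 23871 had 1 gene symbol in the platform table, 1842 several and 27904 none here; 22569 symbols were looked up through the gene identifier, which changed 90. Probe sets at or above the 25th percentile of their array on at least 3 arrays were kept, and a gene was read from its probe set with the highest mean (20572 genes). Group means were fitted with limma 3.58.1 in R 4.3.3, with 8 residual degrees of freedom, and p-values were adjusted by Benjamini-Hochberg over all genes of a comparison; adjusted p-values in the text come from this fit or the alternative named. The fit was tested on simulated data. Precision is limited by 3 arrays a group. The 10 genes, the lists, the motif search and the tests were chosen with earlier results of these data known. Named genes were the 10 inhibitors, up to 3 called genes per list, comparison and direction, and 3 nearest profiles per called inhibitor. Alternatives were quantile normalisation, no filter, probe-set means, another variance prior, fewer groups, the replicate number as a block, and fits without single arrays or those numbered 3. Promoter sequences came from RefSeq.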

Additional observations from a re-analysis of the deposited data

How the results depend on the processing

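The counts of called inhibitors were 8 (TNFα against control), 3 (apigenin against control), 4 (both against TNFα), 4 (both against apigenin) and 0 (interaction). With TNFα the count became 4 in a fit of the 6 arrays compared (0.355% of all genes called) and 4 without the arrays numbered 3 (0.413%). It was 5 to 8 when single arrays were left out, with 5 without control replicate 1 (0.476%) and 5 without TNFα replicate 1 (0.501%). With apigenin it became 5 under quantile normalisation (14.9% of all genes), and 1 to 3 without single arrays, with 1 without control replicate 2 (9.97%) and 1 without apigenin replicate 2 (8.49%). Dropping the filter, averaging probe sets and another variance prior changed none of the 5 counts. The sign of TNIP2, which was never called, turned in both against apigenin under quantile normalisation (-0.04; -0.04 to 0.13 without single arrays) and in the interaction without the arrays numbered 3 (0.15; -0.19 to 0.03 without single arrays). Arrays of the same number deviated together at r = 0.02 to 0.1 for number 1, 0.2 to 0.38 for number 2 and 0.3 to 0.46 for number 3, against -0.44 to 0.1 for arrays of different numbers and groups. Among arrays of other groups, 11 of the 12 arrays correlated best with one of their own number, which is a hint from the data and not from the design. Pairing was accepted only where every pair lay above 0.1, which number 1 did not reach, so the block was kept as an alternative. With the replicate number as a block the counts were 9, 6, 5, 5 and 0, while 3.07%, 17%, 16.1%, 0.486% and 0.0681% of all genes were called. The block added calls of CYLD with TNFα (0.56, adjusted p = 0.0112 in limma) and of NFKBIA (0.41, 0.0467), NFKBIE (-0.58, 0.0258) and CYLD (-0.43, 0.00964) with apigenin. It also added NFKBIZ in both against TNFα (0.38, 0.0389) and CYLD in both against apigenin (0.76, 0.00458), and ended no call. The cause of these changes was not tested. Fits that left arrays out also had fewer arrays, and the part of that was not tested either.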
